A study of Mus musculus with 16 samples.

Results

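Hemidesmosomes are the rivets that hold basal keratinocytes to the basement membrane, and 9 genes of this anchoring machinery were followed here among 32989 identifiers in the count table. They were listed by name, with earlier results of these data already known. Itga6 and Itgb4 encode the integrin α6β4 receptor, and Cd151 a tetraspanin partner of laminin-binding integrins. Col17a1 encodes collagen XVII, also called BP180, and Dst and Plec the plakins dystonin and plectin. Lama3 and Lamb3 encode chains of laminin-332, and Col7a1 encodes collagen VII. All 9 had counts in all 16 libraries, the lowest being 108 counts for Col7a1, and all 9 passed the filter of a mean count of at least 5.

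RNA came from hair follicle stem cell (HFSC) organoids of 4 C57BL/6J mice, cultured for 2 weeks. The 4 groups were α6+/CD34- progenitors and α6+/CD34+ HFSCs, each from untreated organoids and from organoids exposed for 72 h to the acetylated polyamine N1-acetylspermidine (N1-AcSpd), with 1 library per mouse and group. All groups therefore shared a strain, the culture and a sort for surface integrin α6, the protein encoded by Itga6. The sources used here give no genotype beyond wild type, and the untreated groups are the only controls. Because both fractions were gated as α6-positive, the Itga6 mRNA values describe cells that had already been selected for the protein.

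In a hemidesmosome, the integrin α6β4 pair binds laminin-332 outside the cell and plectin inside it. Collagen XVII crosses the membrane beside it, and the epithelial form of dystonin (BP230) links both to keratin filaments. Counts here are per gene, so the 14 annotated protein-coding transcripts of Dst and the 21 of Plec were not told apart. Beneath the basement membrane, collagen VII forms the anchoring fibrils that tie it to the dermis. Bulge HFSCs rest on such a basement membrane, and collagen XVII is known for a role in keeping them in place. Inherited loss of several of these genes causes blistering of the skin.

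Levels are unique molecular identifier (UMI) counts scaled to a common total (CPM, TMM-scaled). A log2 fold change is CD34+ against CD34- for a cell type effect and N1-AcSpd against untreated for a treatment effect, and is followed by its standard error (SE). A gene was called where the Benjamini-Hochberg adjusted p of edgeR's quasi-likelihood test, over 19049 genes, was under 0.05. Values listed in a row belong to mice 1 to 4 in that order.

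Both collagens of the anchoring complex were called between the fractions in both conditions and in every fit that left out a library or a mouse, which held for no other member. Their upstream stretches are therefore shown, from RefSeq on GRCm38.p6, 5′ to 3′ on the strand of the gene and without annotated exon bases. The Col7a1 stretch lies at chr9:108953336-108953585 on the plus strand, and the Col17a1 stretch at chr19:47692095-47692292 on the minus strand. Capitals mark the letters GGGCGG, the core of SP/KLF sites, in the first stretch. In the second they mark the core promoter box spelled TATAAA.
Col7a1: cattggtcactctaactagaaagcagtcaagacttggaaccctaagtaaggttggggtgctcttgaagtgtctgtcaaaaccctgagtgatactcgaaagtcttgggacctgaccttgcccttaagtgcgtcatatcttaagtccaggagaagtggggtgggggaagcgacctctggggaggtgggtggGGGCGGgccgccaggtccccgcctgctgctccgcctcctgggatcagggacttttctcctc
Col17a1: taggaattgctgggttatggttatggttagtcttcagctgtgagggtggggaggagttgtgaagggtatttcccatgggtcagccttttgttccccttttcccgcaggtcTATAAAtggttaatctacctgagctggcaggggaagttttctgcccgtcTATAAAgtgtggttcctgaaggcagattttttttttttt

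Each of 4 motifs was searched on both strands in the 250 bases before a start. The Col7a1 window held 1 GGGCGG, a match present in 32.7% of 32851 promoters, and the Col17a1 window held 2 TATAAA, present in 12.4%. Neither held the AP-1 letters TGANTCA, present in 6.75% of promoters, or the TEAD letters GGAATG, present in 12.6%. These are matches of letters in a window and say nothing of which factors bind. The table used gave no promoter for Itga6, Itgb4 or Plec.

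Library totals ran from 15480075 to 29074855 UMIs, and no library was a copy of another. The mitochondrial share was 0.938% to 1.16% in CD34- libraries and 1.23% to 1.45% in CD34+ libraries. On plain library totals, the 4 basal keratinocyte markers summed to between 5926 and 6820 CPM over all 16 libraries, with overlapping ranges in the 4 groups. The 10 differentiated keratinocyte markers summed to between 681 and 1228 CPM in CD34- libraries and between 234 and 297 CPM in CD34+ libraries, and the 8 HFSC markers to between 63.1 and 91.4 CPM and between 395 and 681 CPM. The 6 fibroblast markers summed to at most 1.46 CPM and the 5 immune markers to at most 2.14 CPM, and the 6 melanocyte markers to between 26.8 and 38.4 CPM with Tyr and Tyrp1 at 0 in most libraries. Of the endothelial markers, Cdh5 was at 0 in all libraries and Kdr and Tek reached at most 0.38 CPM, while Pecam1 alone lay between 1773 and 1957 CPM. The part of these other cell states in the results below was not tested, and in bulk RNA a change in cell makeup and a change in RNA per cell cannot be told apart.

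**Figure D1:**
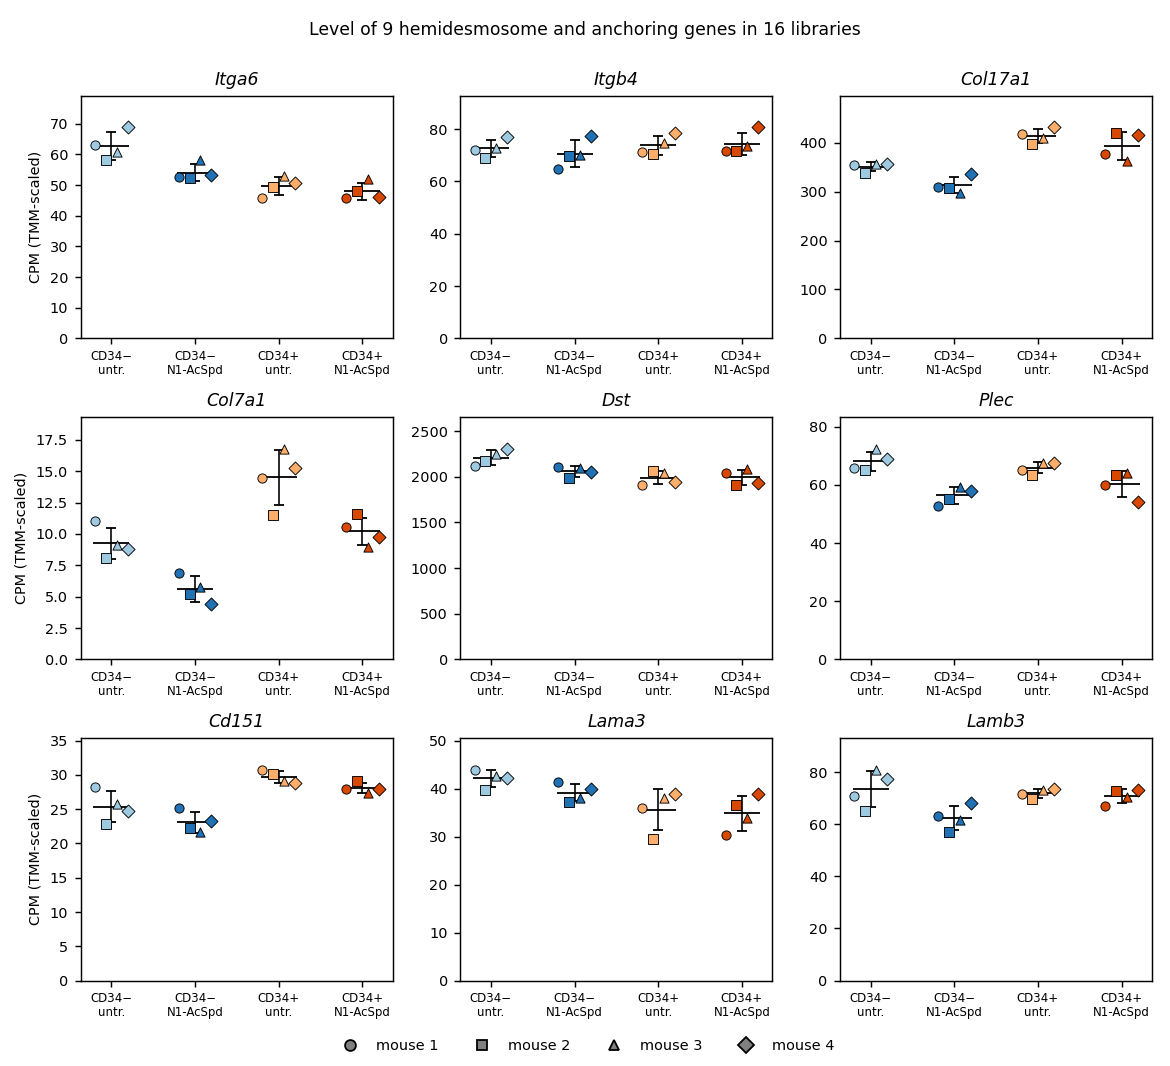
Level of each of the 9 genes in the 16 libraries, as CPM on TMM-scaled totals from an axis that starts at 0, with 1 symbol per mouse, and the mean ± SD of 4 libraries in black. Col7a1 shows the widest separation, from a mean of 5.58 CPM in N1-AcSpd CD34- libraries to 14.5 CPM in untreated CD34+ libraries, while the 4 groups of Itgb4 overlap.

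On GRCm38 the members lie at separate loci. Itga6 (ENSMUSG00000027111) spans 71745616 to 71858416 of chromosome 2, Itgb4 (ENSMUSG00000020758) 115974709 to 116008412 of chromosome 11 and Cd151 (ENSMUSG00000025510) 141467392 to 141471473 of chromosome 7. Col17a1 (ENSMUSG00000025064) spans 47646344 to 47692094 of chromosome 19 and Col7a1 (ENSMUSG00000025650) 108953586 to 108984875 of chromosome 9. Dst (ENSMUSG00000026131) and Lamb3 (ENSMUSG00000026639) share chromosome 1, at 33908225 to 34308661 and 193207699 to 193343878, and Plec (ENSMUSG00000022565) spans 76170974 to 76232574 of chromosome 15. Genes annotated within these loci had at most 0.024 counts for each count of the member, and for Lama3 the figure is given with its values.

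The first question was which anchoring genes separate HFSCs from their progeny. In untreated organoids 6 of the 9 members were called, against 32.1% of all genes tested: Col7a1, Col17a1 and Cd151 were higher in CD34+ cells (16.1% of all genes were called higher) and Itga6, Dst and Lama3 were lower (16.1% were called lower). Under N1-AcSpd 4 of 9 were called against 33.3% of all genes, the same 3 higher (16.5% of all genes) and Itga6 lower (16.8%). Averaged over both conditions 6 of 9 were called against 44.8%, again 3 higher (23.0%) and 3 lower (21.8%). The median log2 fold change of the 9 genes was -0.03 in untreated and 0.10 in N1-AcSpd organoids, beside 0.02 and -0.01 over all genes tested. The members thus moved in both directions, with a median close to that of all genes.

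Taking the anchoring fibril first, Col7a1 was higher in CD34+ cells in every mouse. In untreated organoids its level was 11.0, 8.11, 9.13 and 8.79 CPM in CD34- libraries and 14.4, 11.5, 16.8 and 15.3 CPM in CD34+ libraries. With N1-AcSpd the values were 6.89, 5.21, 5.78 and 4.43 CPM and 10.5, 11.5, 8.95 and 9.74 CPM. The 2 fractions did not overlap in either condition. The cell type effect on the log2 scale was 0.65 ± 0.14 in untreated organoids (adjusted p = 0.00344) and 0.87 ± 0.15 with N1-AcSpd (adjusted p = 0.00037), or 1.56-fold and 1.83-fold. Of the 4 group means, the order ran from N1-AcSpd CD34- through untreated CD34- and N1-AcSpd CD34+ to untreated CD34+, in which neighbours among the upper 3 groups overlapped and the lowest group stood apart. Col7a1 rests on the fewest counts of the 9 genes, 108 to 310 a library.

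Col17a1, the transmembrane collagen, followed the same fractions with a smaller change. Its level in untreated organoids was 354, 338, 356 and 356 CPM in CD34- libraries and 417, 398, 410 and 431 CPM in CD34+ libraries. With N1-AcSpd it was 310, 308, 297 and 336 CPM and 377, 420, 363 and 416 CPM. Every CD34+ library lay above every CD34- library of its condition. The fitted increase was 17.9% in untreated organoids (log2 0.24 ± 0.05, adjusted p = 0.00212) and 25.8% with N1-AcSpd (log2 0.33 ± 0.05, adjusted p = 0.000152). These calls on both collagens stood in all 20 fits that left out 1 library or 1 mouse.

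Of the integrin receptor genes, the α6 chain was lower in CD34+ cells and the β4 chain was not called. Itga6 had 63.2, 58.1, 60.9 and 68.8 CPM in untreated CD34- libraries and 45.8, 49.5, 52.9 and 50.6 CPM in untreated CD34+ libraries, with no overlap. With N1-AcSpd its level was 52.5, 52.3, 58.3 and 53.2 CPM and 45.7, 48.0, 51.9 and 46.3 CPM, again with no overlap but a narrower gap. The log2 effect was -0.34 ± 0.06 (adjusted p = 0.0009) in untreated organoids and -0.17 ± 0.06 (adjusted p = 0.0437) with N1-AcSpd. The second of these calls was lost in 16 of 20 leave-out fits and with only the compared groups in the fit (adjusted p = 0.0814). Scaled to plain library totals it was -0.06 (adjusted p = 0.570). Of the 31-base runs of Itga6 transcripts, 6.15% also occur in transcripts of 15 other genes, so reads from these runs cannot be assigned by sequence.

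Itgb4 differed between fractions by less than the spread between mice. It ran from 69.0 to 76.8 CPM in untreated CD34- libraries and from 70.5 to 78.6 CPM in untreated CD34+ libraries. Its log2 effects were 0.02 ± 0.06 (adjusted p = 0.835) and 0.08 ± 0.06 (adjusted p = 0.364). On plain library totals the second was 0.19 and was called (adjusted p = 0.0229). Integrin α6 pairs with β4 in hemidesmosomes, and the ratio of both mRNAs within a library is given further on.

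Cd151, whose product binds α6 integrins in the membrane, rose with the collagens and not with Itga6. Its level was 28.2, 22.8, 25.7 and 24.8 CPM in untreated CD34- libraries and 30.8, 30.2, 29.1 and 28.9 CPM in untreated CD34+ libraries. With N1-AcSpd it was 25.2, 22.2, 21.6 and 23.3 CPM and 28.0, 29.1, 27.4 and 27.9 CPM. The fractions did not overlap in either condition, with log2 effects of 0.23 ± 0.06 (adjusted p = 0.00986) and 0.28 ± 0.06 (adjusted p = 0.00221). Without mouse 2 or mouse 4 the untreated call was lost (adjusted p = 0.0808 and 0.0667).

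Among the laminin-332 chains, Lama3 was lower in untreated CD34+ cells and Lamb3 was not called. Lama3 had 44.0, 39.7, 42.7 and 42.3 CPM in untreated CD34- libraries and 35.9, 29.6, 38.0 and 39.0 CPM in untreated CD34+ libraries, and 41.4, 37.3, 38.1 and 40.1 CPM and 30.4, 36.6, 33.9 and 38.9 CPM with N1-AcSpd. Its log2 effect was -0.24 ± 0.09 (adjusted p = 0.0436) without and -0.17 ± 0.09 (adjusted p = 0.161) with N1-AcSpd. The untreated call was lost in 14 of 20 leave-out fits and without the low-count filter (adjusted p = 0.0631), and on plain library totals the effect was -0.13 (adjusted p = 0.313). A pseudogene on the same strand within the Lama3 locus, Gm29201, had 0.191 counts for each Lama3 count. Only 0.0187% of the 31-base runs of Lama3 transcripts also occur in transcripts of another gene, so nearly all runs are particular to Lama3.

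Lamb3 had 70.8, 65.0, 80.9 and 77.4 CPM in untreated CD34- libraries and 71.5, 69.6, 73.0 and 73.6 CPM in untreated CD34+ libraries, so the ranges overlapped. Under N1-AcSpd it had 63.2, 57.2, 61.5 and 68.3 CPM and 67.0, 72.7, 70.4 and 73.1 CPM. The log2 effect was -0.03 ± 0.07 (adjusted p = 0.786) in untreated organoids and 0.18 ± 0.07 (adjusted p = 0.0504) with N1-AcSpd, at the threshold. That effect was called in 5 of 8 alternative fits, among them mouse as a block (adjusted p = 0.0238), DESeq2 (0.0357) and library totals (log2 0.30, 0.00248), and in 6 of 20 leave-out fits.

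On the keratin side, neither cell type effect of Plec, the plectin gene, was called. It had log2 effects of -0.05 ± 0.06 (adjusted p = 0.615) and 0.10 ± 0.06 (adjusted p = 0.206) between fractions. On plain library totals, which moved the median of all genes up by 0.115 in both, the Plec effects were 0.07 (adjusted p = 0.390) and 0.22 (adjusted p = 0.00875), so its sign in untreated organoids and its call with N1-AcSpd depend on the scaling. Dst was listed at 2114, 2169, 2246 and 2309 CPM in untreated CD34- libraries and 1914, 2059, 2039 and 1941 CPM in untreated CD34+ libraries, a log2 effect of -0.15 ± 0.04 (adjusted p = 0.00574). With N1-AcSpd the effect was -0.05 ± 0.04 (adjusted p = 0.354), from 2112, 1981, 2098 and 2055 CPM and 2037, 1911, 2089 and 1933 CPM. Scaled to plain library totals, the untreated effect of Dst was -0.04 (adjusted p = 0.440). Without mouse 4 the untreated call was also lost (adjusted p = 0.0744).

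The Dst value is uncertain for a further reason. It made up 71.2% to 77.4% of the counts of the 9 genes, and its counts over the 16 libraries differed in sum by only 2.51% from those of Gm38021, a gene model elsewhere on chromosome 1, and by 2.57% from those of Add2, which encodes an adducin known from red cells and neurons. For the other 8 members the nearest gene differed by 4.03% to 13.6%. Transcripts of 2128 other genes share at least 1 run of 31 bases with Dst transcripts, with 1.42% of the Dst runs involved. Whether counts assigned to Dst include reads of other transcripts was not tested. Without Dst, 5 of 8 members were called in untreated organoids.

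**Figure D2:**
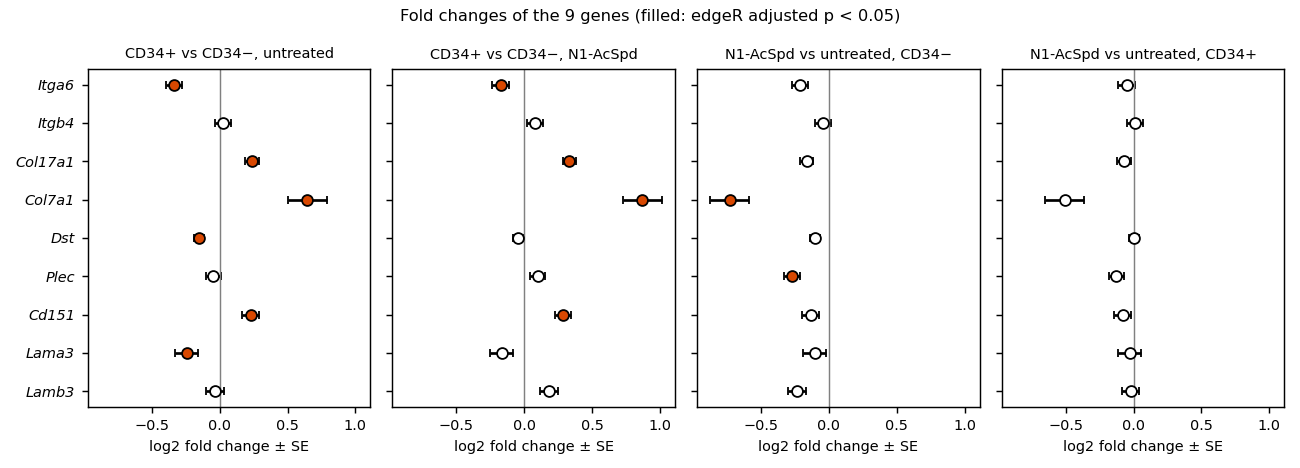
Log2 fold change ± SE (x axis) of the 9 genes (y axis) in the 4 comparisons, filled where the adjusted p was under 0.05. Col7a1 and Col17a1 lie right of 0 in both cell type panels, and all 9 genes lie left of 0 in the CD34- treatment panel, where 2 are filled.

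Adding N1-AcSpd was the second question. In CD34- progenitors all 9 members had negative log2 fold changes (49.8% of all genes did) and 2 were called, Col7a1 and Plec, against 0.614% of all genes tested in either direction and 0.241% called lower. Col7a1 went from 9.26 ± 1.24 CPM (SD, n = 4) to 5.58 ± 1.03 CPM, with no overlap between the library values given above. Its log2 change was -0.73 ± 0.15 (adjusted p = 0.042, lower in 4 of 4 mice). Plec had 65.9, 65.1, 72.5 and 68.8 CPM without and 52.8, 55.2, 59.3 and 58.1 CPM with N1-AcSpd, also with no overlap, a log2 change of -0.27 ± 0.06 (adjusted p = 0.048, lower in 4 of 4 mice).

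Both of these calls were close to the threshold. With only the compared groups in the fit, without the low-count filter, or with libraries thinned to the smallest, neither was called. In 15 of 20 leave-out fits no member was called, Col7a1 being called in 4 and Plec in 2, and neither was called on leaving out any 1 of the mice. Calls over all genes fell there too, from 117 to 12, 5, 19 and 4 without mouse 1, 2, 3 and 4. DESeq2 called 5 members, the others being Col17a1, Itga6 and Lamb3, but it also called more of all genes, 558 of 19049 against 117 by edgeR. In edgeR 7 of the 9 had an unadjusted p under 0.05, as did 13.6% of all genes. Of these, Itga6 (log2 -0.21 ± 0.06, adjusted p = 0.132), Col17a1 (-0.16 ± 0.05, adjusted p = 0.149) and Lamb3 (-0.23 ± 0.07, adjusted p = 0.127) were nearest to a call. The differentiated keratinocyte markers summed to between 681 and 854 CPM in untreated and between 846 and 1228 CPM in N1-AcSpd CD34- libraries, the HFSC markers to between 80.3 and 91.4 CPM and between 63.1 and 76.0 CPM, and the mitochondrial share was 1.05% to 1.16% and 0.938% to 1.04%. None of these 3 ranges overlapped between the conditions, and their part in these changes was not tested. The HFSC markers did not all fall in these CD34- libraries. The largest parts of their sum were Krt15 (34.0 to 41.0 CPM untreated, 26.2 to 32.0 CPM with N1-AcSpd) and Sox9 (28.7 to 38.6 and 24.6 to 31.5 CPM). Krt15, Nfatc1 (5.11 to 6.37 and 4.13 to 4.72 CPM) and Postn (1.76 to 2.60 and 1.31 to 1.47 CPM) were lower without overlap. Sox9, Tcf7l1 and Lgr5 overlapped, as did Cd34 (2.93 to 3.15 and 2.79 to 3.50 CPM). Lhx2 leaned higher with N1-AcSpd (0.25 to 0.49 and 0.48 to 0.71 CPM), with overlap and as few as 4 counts in a library.

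In CD34+ HFSCs neither edgeR nor DESeq2 called any of the 9 members (0 calls, with 2 of 9 below an unadjusted p of 0.05), against 0.325% of all genes tested by edgeR. Col7a1 had the largest change, -0.51 ± 0.14 on the log2 scale (adjusted p = 0.167), and was lower in 3 of 4 mice. Plec had 65.1, 63.5, 67.6 and 67.6 CPM without and 60.0, 63.4, 64.0 and 54.0 CPM with N1-AcSpd, a log2 change of -0.13 ± 0.06 (adjusted p = 0.349). For the other 7 members the change lay between -0.08 and 0.01. The sum of the differentiated keratinocyte markers shifted in CD34+ libraries too, from 234 to 258 CPM untreated to 259 to 297 CPM with N1-AcSpd, narrowly without overlap. Of the 10 markers only Ivl separated (8.92 to 10.6 and 13.6 to 17.8 CPM). The largest parts, Sbsn (121 to 142 and 133 to 155 CPM) and Sprr1b (58.7 to 72.9 and 67.7 to 97.3 CPM), overlapped. Flg hardly moved (16.2 to 18.3 and 15.7 to 18.2 CPM). The HFSC marker sums overlapped there (486 to 681 and 395 to 603 CPM). The part of these markers was not tested.

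Averaged over both fractions, Col7a1 (log2 -0.62 ± 0.10, adjusted p = 0.00599) and Plec (-0.20 ± 0.04, adjusted p = 0.0144) were called lower with N1-AcSpd, against 4.86% of all genes called and 2.16% called lower. With mouse as a block Col17a1 was called too (main adjusted p = 0.067, blocked 0.0362). The Plec call was lost on leaving out any 1 of the mice (adjusted p of 0.0626 to 0.106), and the Col7a1 call without mouse 3 or mouse 4 (0.0708 and 0.0556), which left 0 members called. Without mouse 3 or mouse 4, calls over all genes went from 925 to 217 and 262.

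Whether the fractions responded differently was tested by the interaction, the cell type effect with N1-AcSpd minus that without. All 9 members had positive log2 differences, with a median of 0.10 beside -0.01 over all genes, of which 52.1% were negative. No member was called by edgeR or DESeq2, 1 had an unadjusted p under 0.05 in edgeR, and edgeR called 0% of all genes. That member was Lamb3, at a log2 difference of 0.21 ± 0.09 (adjusted p = 1.00). A difference in response between fractions was therefore not detectable for these genes, and the calls in CD34- cells are not shown to be particular to them.

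Ratios of 2 genes within a library do not depend on how libraries are scaled. They were chosen after the fits had been seen, and 12 exact two-sided permutation tests were run, in which 4 libraries against 4 cannot give a p under 0.0286. Itga6 counts per Itgb4 count were 0.864 ± 0.0289 (SD, n = 4) in untreated CD34- libraries and 0.675 ± 0.0362 in untreated CD34+ libraries, without overlap (exact p = 0.0286, 0.0686 after adjustment over the 12). With N1-AcSpd the ratios were 0.770 ± 0.0647 and 0.647 ± 0.0558 and overlapped (exact p = 0.0571, adjusted 0.0980). Lama3 counts per Lamb3 count were 0.576 ± 0.0466 in untreated CD34- libraries and 0.494 ± 0.0478 in untreated CD34+ libraries, with overlap (exact p = 0.0571, adjusted 0.0980). With N1-AcSpd these were 0.629 ± 0.0322 and 0.493 ± 0.0332, without overlap (exact p = 0.0286, adjusted 0.0686). Col17a1 counts per Dst count, which carry the doubt about Dst, were 0.159 ± 0.00600 in untreated CD34- libraries and 0.209 ± 0.0138 in untreated CD34+ libraries (exact p = 0.0286, adjusted 0.0686). Under N1-AcSpd the same ratio was 0.152 ± 0.00971 and 0.198 ± 0.0223, without overlap (exact p = 0.0286, adjusted 0.0686). Between treatments, Itga6 per Itgb4 in CD34- libraries went from 0.864 to 0.770 without overlap (exact p = 0.0286, adjusted 0.0686). The other treatment tests had an exact p of at least 0.143. No ratio passed the adjusted threshold. With the floor of 0.0286, a ratio could pass only if most of the 12 tests sat at that floor. The lack of a pass therefore supports no conclusion.

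**Figure D3:**
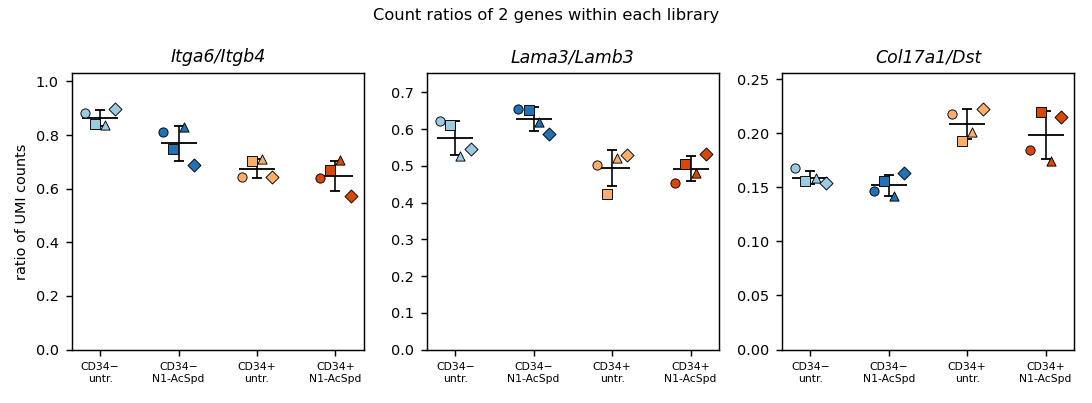
Ratio of the UMI counts of 2 genes in each library (y axis, from 0) for the 4 groups, with 1 symbol per mouse (circle, square, triangle and diamond for mice 1 to 4) and the mean ± SD of 4 libraries in black. Itga6/Itgb4 separates the fractions in untreated organoids, at means of 0.864 in CD34- and 0.675 in CD34+ libraries, and overlaps with N1-AcSpd.

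The surrounding basement membrane zone was read from 35 partner genes, of which 32 passed the filter. In untreated organoids 18 were called between fractions, 15 higher and 3 lower in CD34+ cells, and with N1-AcSpd 18 were called, 16 higher and 2 lower. That is 56.3% of the 32 in each, beside 32.1% and 33.3% of all genes. Their median log2 fold change was 0.23 and 0.41, beside 0.02 and -0.01 over all genes tested. The partner list was chosen with earlier results of these data known, so neither the share nor the median is independent evidence. The largest increases in untreated organoids were Npnt (nephronectin, an integrin ligand of the bulge basement membrane; log2 2.17 ± 0.35), the collagen IV chains Col4a2 (1.72 ± 0.27), Col4a1 (1.42 ± 0.29) and Col4a5 (1.38 ± 0.27), and Lamb2 (1.09 ± 0.11, the β2 chain of other laminins). All 5 were rare, with group means of at most 4.13 CPM.

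Called lower in untreated CD34+ cells were P4hb (-0.36 ± 0.06, a subunit of the collagen prolyl hydroxylase), Itga3 (-0.31 ± 0.06, the α chain of another laminin receptor) and Krt14 (-0.14 ± 0.05, a basal keratin). Itga3 fell from 17.4 ± 1.55 CPM (SD, n = 4) to 14.1 ± 0.416 CPM. With N1-AcSpd the 5 largest increases were Npnt (2.65 ± 0.36), Col4a2 (1.56 ± 0.27), Col4a5 (1.39 ± 0.27), Plod1 (1.35 ± 0.10, a lysyl hydroxylase of collagens) and Col4a1 (1.30 ± 0.29), and Itga3 (-0.27 ± 0.06) and Krt14 (-0.15 ± 0.05) were lower.

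For N1-AcSpd the partners gave few calls, as did all genes. None of the 32 was called by edgeR in either fraction alone, with 7 in CD34- and 5 in CD34+ cells below an unadjusted p of 0.05. DESeq2 called 3 and 2, beside 558 and 431 of all 19049 genes. With 0.614% and 0.325% of all genes called by edgeR, 0 of 32 says nothing particular of the partners. Like the members, most partners had negative log2 fold changes in CD34- cells, 78.1% beside 49.8% of all genes. In CD34+ cells the share was 53.1% for the partners and 53.1% for all genes. Averaged over fractions 3 of 32 were called (9.38%, beside 4.86% of all genes): Cd9 (0.18 ± 0.03, adjusted p = 0.00556), a tetraspanin, was higher, and Bmp1 (-0.28 ± 0.07, adjusted p = 0.0411), a procollagen protease, and Fermt1 (-0.26 ± 0.06, adjusted p = 0.0216), the integrin activator kindlin-1, were lower. With mouse as a block 6 partners were called there and 3 and 1 in the single fractions.

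**Figure D4:**
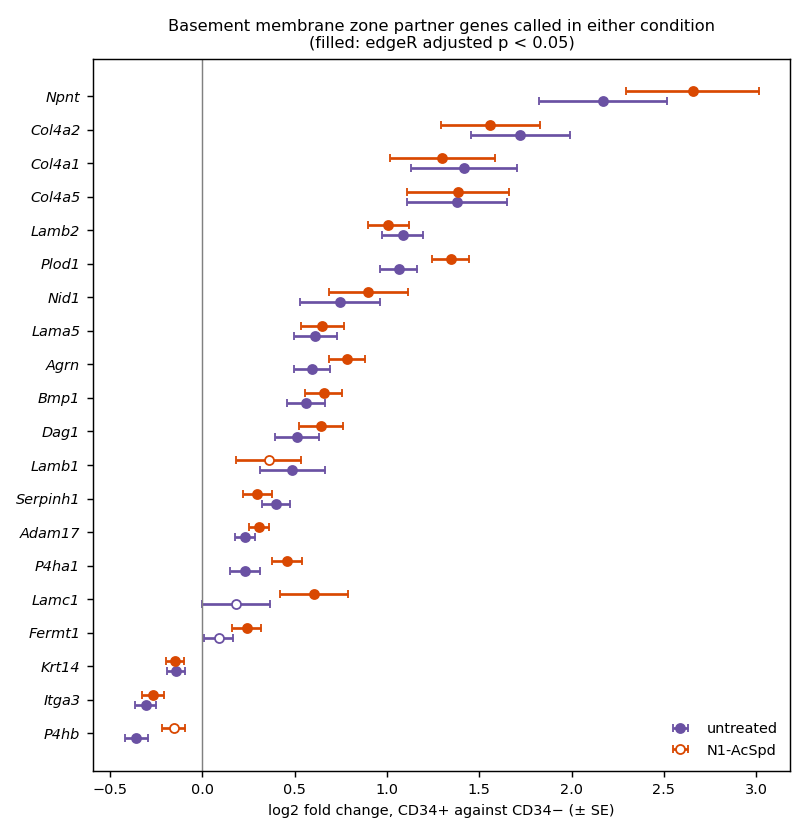
Log2 fold change ± SE of CD34+ against CD34- cells (x axis) for the partner genes called in untreated (purple) or N1-AcSpd (orange) organoids (y axis), filled where the adjusted p was under 0.05. Npnt lies furthest right, and P4hb, Itga3 and Krt14 lie left of 0 in both conditions.

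As a description, the genes whose log2 CPM tracked each member over the 16 libraries, which share group, depth and scaling, were sought among 9657 candidates. Col7a1 was closest to mt-Nd4 (Pearson r = 0.973), a mitochondrial gene, then Spef1 (0.962) and Syne2 (0.959). Col17a1 was closest to Haghl, Os9 and Sertad4 (0.960, 0.960 and 0.958), and Cd151 to Cst3, Cib2 and Minos1 (0.957, 0.956 and 0.954). Itga6 was closest to Calr (0.899), Rab38 (0.886) and Dsp (0.879), the last encoding the plakin of desmosomes. The remaining members had lower values, Lama3 with Gfpt1 (0.848), Pla2g4a (0.845) and Vps53 (0.834), and Dst with Pecam1 (0.854), Trip4 (0.853) and Wdr34 (0.851). Lamb3 was nearest to Mgst3 (0.840), Cope (0.832) and Fermt1 (0.806), Plec to Luc7l3 (0.846), Mgst3 (0.782) and Cavin1 (0.779), and Itgb4 to Pigs (0.804), Ubr4 (0.788) and Thap7 (0.780).

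Between members, Col17a1, Col7a1 and Cd151 had the highest pairwise r over the 16 libraries, 0.855 to 0.880. After the group means were taken away their r fell to between 0.145 and 0.470. Itga6 and Itgb4 had an r of -0.04 over all libraries and 0.308 within groups.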

How the data were processed

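RNA of 16 libraries, 4 mice in each of 4 groups, was measured by 3′ sequencing with UMIs. The authors separated reads with FLEXBAR, placed the second read on mm10 with kallisto (0.45.0 in the submitters' processing notes), assigned tags with BEDTools and deposited unique UMI counts per gene, not normalized. The annotation release is not given in the sources used here. The 156050 empty cells were read as 0, and 94 identifiers without a symbol held 0.125% of counts.

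Here, edgeR 4.0.16 was run on the 19049 genes whose counts averaged 5 or more (TMM, quasi-likelihood, 1 fit of all libraries, Benjamini-Hochberg adjusted p, two-sided). The fit was tested on simulated data, where small changes were often not called. The pass criteria first set there were not met and were replaced, with the fit unchanged. SE is the log2 fold change over the square root of F. Alternatives were DESeq2 1.42.0, other scalings and filters, mouse as a block, compared groups only, thinning, the study's rule (p under 0.05 and log2 change over 0.5) and leaving out each library or mouse. Replicate numbers stand for the same animal by the labels' mouse entry, so they pair the libraries, although same-mouse deviations had a mean r of only 0.034 (-0.118 to 0.162, 24 pairs). The study's methods state no block, so the main fit has none.

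Loci, symbols and transcripts came from GENCODE on GRCm38. The members, partner genes and markers were chosen with earlier results of these data known, and 1 gene of the partner list is not reported here. All 9 members are named, with called partners of largest change (at most 5 in each direction) and the 3 genes of most similar pattern (mean count at least 50). UMI totals of 15480075 to 29074855 limit counting error only.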

Additional observations from a re-analysis of the deposited data

Results flagged for a closer look

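In 36 groups of 4 libraries (9 genes in 4 groups), 2 had a library whose gap to its nearest neighbour, as a share of the range, was above Dixon's critical value of 0.829. Chance flags about 1 in 20 groups. Itga6 in N1-AcSpd CD34- libraries had its highest value, 58.3 CPM in mouse 3, apart from 52.3 to 53.2 CPM in the other mice (gap share 0.854). Col17a1 in untreated CD34- libraries had its lowest value, 338 CPM in mouse 2, apart from 354 to 356 CPM (gap share 0.909). Without its library, the Itga6 cell type effect with N1-AcSpd went from -0.17 to -0.14 (adjusted p = 0.135), and the Col17a1 calls between fractions stood.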

How the results depend on the processing

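The cell type calls on Col17a1, Col7a1 and Cd151 kept their direction in every alternative run, and those on Col17a1 and Col7a1 also their call at an adjusted p under 0.05. Leaving out 1 library or mouse gave 3 to 6 members called in untreated organoids (3 without mouse 4), 3 to 5 with N1-AcSpd, 5 to 6 averaged over conditions, 0 to 2 for N1-AcSpd in CD34- cells, 0 in CD34+ cells and for the interaction, and 0 to 3 averaged over fractions. Without mouse 4, calls over all 19049 genes went from 6123 to 4503 in untreated organoids and from 6346 to 4924 with N1-AcSpd. Under the study's rule (unadjusted p and a log2 change over 0.5), 1 member, Col7a1, passed in each of the 2 cell type comparisons, their average, each of the 2 treatment comparisons and their average. Of all 19049 genes, 3380 (untreated) and 3645 (N1-AcSpd) passed for cell type and 3738 for the average. For treatment 469 passed in CD34- cells, 510 in CD34+ cells and 459 for the average. In CD34- cells the 2 members called became 1 with DESeq2 size factors or library totals, 0 without a filter, with compared groups only or thinned, and 5 with DESeq2. The cause was not tested, but the compared-groups fit holds fewer samples and the unfiltered fit tests 32989 genes. Plain library totals raised the all-gene median by 0.115 in each cell type comparison, Itgb4, Plec and Lamb3 were called with N1-AcSpd, 4861 genes were called higher and 1762 lower in untreated organoids against 3059 and 3064, and the averaged Dst effect turned from -0.10 to 0.0151. With mouse as a replicate block Lamb3 was added to the calls with N1-AcSpd (5 members) and Col17a1 to those averaged over fractions (3 members), and no other call on a member changed. Over all genes the calls were 117 in CD34- cells (349 with the block, 558 by DESeq2, 35 unfiltered, 68 thinned, 0 with compared groups only), 62 in CD34+ cells (152, 431, 35, 42 and 3), 925 averaged over fractions (1551, 1546 and 445 unfiltered) and 0 for the interaction (71 by DESeq2). Partner calls for N1-AcSpd rose from 0 to 3 in CD34- cells (block or DESeq2), from 0 to 1 (block) or 2 (DESeq2) in CD34+ cells and from 3 to 6 averaged (block). Leaving out a library moved no ratio of 2 genes by more than its SD.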
